A study of Mus musculus with 8 samples.

Results

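The baseline transcriptome of cultured mouse intraepithelial lymphocytes was described from the 4 libraries made without osteopontin, named null 1, null 2, null A and null B, out of 8 libraries in the series. The cells came from C57BL/6 mice, had been sorted for the leukocyte surface protein CD45, and spent 24 h at 37 °C in RPMI medium with 10% serum. No osteopontin was added, and both groups of the series shared this sort and culture. No label ties the 4 libraries to separate animals or cultures, and the spread between them may be partly technical. Of 21817 protein-coding genes in the files, 11569 (53.0%) reached a mean of at least 1 TPM and are counted as detected. TPM divides the reads of a transcript by its length and brings every library to 1 common total, so that levels can be compared between genes. CPM, used beside it, is a gene's share of all reads on a common scale, with no correction for length. All values below describe 1 group, with SD and n = 4, and no test between groups was made.

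Intraepithelial lymphocytes are T cells and other lymphocytes that sit within the single layer of epithelium lining the gut. Many carry the integrin CD103, which binds E-cadherin on epithelial cells, and the CD8 alpha chain without CD8 beta. Both alpha-beta and gamma-delta T cell receptors are found among them, and they are known for cytotoxic granules, NK-type receptors and slow division. Their surroundings in the tissue also hold B cells, plasma cells, myeloid cells and stroma, which a sort on CD45 removes only where CD45 is absent.

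The libraries held 57492806 (null 1), 64330529 (null 2), 71399847 (null A) and 65554396 (null B) estimated reads, and a floor of 3 reads corresponded to 0.0420 to 0.0522 CPM. Null B stood apart. It had a read on 20225 genes, against 22940 to 22997 in the others. Among the detected genes, 8.01% to 9.69% differed by more than 2-fold on TPM + 1 in pairs that included null B, against 3.83% to 4.37% in the pairs among the other libraries. Results that rest on null B are given with its own value, and the plot of marker sums by library shows the lists in which it lay apart.

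Transcripts of MHC class I presentation were among the most abundant and most even in these cells, so their promoters are printed first. MHC class I molecules show peptides from inside the cell to CD8 T cells, and all nucleated cells make them. H2-K1, a classical heavy chain gene, stood at 3199, 3252, 3039 and 3126 TPM in null 1, 2, A and B, which placed it at rank 12. H2-D1, the other classical heavy chain in this strain, had a mean of 2810 ± 106.3 TPM (rank 18). B2m, the light chain shared by all class I molecules, stood at 2222 ± 184.1 TPM (rank 24). H2-Q7, a nonclassical heavy chain, stood at 1078 ± 44.5 TPM (rank 94), and H2-M3, which presents formylated peptides, at 59.4 ± 8.68 TPM (rank 2961). Heavy chain genes are near copies of each other, and Salmon divides their shared reads, so their single levels are uncertain.

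The 200 bases before the RefSeq start of these genes (GRCm38.p6, reading strand, 5′ to 3′) are shown with 3 motifs in capitals: GGGGATTCC, TGACG and ATTGG. The windows are chr17:34000348-34000547 (minus strand) for H2-K1, chr17:35262894-35263093 (plus) for H2-D1, chr2:122147487-122147686 (plus) for B2m, chr17:35438955-35439154 (plus) for H2-Q7 and chr17:37270034-37270233 (plus) for H2-M3.
H2-K1: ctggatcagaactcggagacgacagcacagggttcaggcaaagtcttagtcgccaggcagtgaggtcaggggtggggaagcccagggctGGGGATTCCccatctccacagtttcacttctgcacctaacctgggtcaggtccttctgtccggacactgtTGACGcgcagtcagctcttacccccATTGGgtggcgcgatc
H2-D1: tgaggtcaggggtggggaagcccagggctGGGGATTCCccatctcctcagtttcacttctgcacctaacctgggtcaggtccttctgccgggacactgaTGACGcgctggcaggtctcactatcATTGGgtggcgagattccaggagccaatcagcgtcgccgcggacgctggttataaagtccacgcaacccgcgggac
B2m: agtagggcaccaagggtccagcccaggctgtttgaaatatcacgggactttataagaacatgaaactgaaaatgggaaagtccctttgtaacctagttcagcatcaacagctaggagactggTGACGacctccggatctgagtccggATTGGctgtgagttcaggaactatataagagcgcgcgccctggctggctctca
H2-Q7: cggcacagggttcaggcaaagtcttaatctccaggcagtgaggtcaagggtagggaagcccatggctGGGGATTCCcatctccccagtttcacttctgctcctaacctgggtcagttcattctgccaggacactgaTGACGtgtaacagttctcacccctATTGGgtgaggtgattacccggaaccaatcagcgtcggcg
H2-M3: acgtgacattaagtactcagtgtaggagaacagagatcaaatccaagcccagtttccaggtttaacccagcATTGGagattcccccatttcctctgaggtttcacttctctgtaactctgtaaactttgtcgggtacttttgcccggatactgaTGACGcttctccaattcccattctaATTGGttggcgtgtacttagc
The first motif is a kappa-B type sequence, the last is an inverted CCAAT box, and TGACG is the core of a cyclic AMP response element. GGGGATTCC lay 111 bases before the RefSeq start in H2-K1, 171 in H2-D1 and 133 in H2-Q7. The RefSeq start of H2-D1 lay 364 bases from the start of its dominant transcript in these libraries, while those of H2-K1 and H2-Q7 coincided with it. On either strand within 250 bases before the start, it occurred in 70 of 32851 RefSeq windows (0.213%), in 25 of the 8692 detected genes with a window (0.288%), and in 4 of the 12 MHC class I presentation genes with a window (H2-D1, H2-K1, H2-Q6 and H2-Q7). The pair TGACG then ATTGG, with starts 24 or 25 bases apart on the reading strand, occurred in 25 windows (0.0761%) and in 15 of the detected genes (0.173%). H2-K1, H2-D1, B2m and H2-Q7 were the 4 highest of those 15 genes, H2-M3 stood among the rest, and these 5 were the MHC class I presentation genes that held the pair. Single matches were common: TGACG on either strand was in 17.8% and ATTGG in 33.8% of all windows. The motifs and the spacing were picked after the sequences were read, the heavy chain genes share sequence by descent, and a match describes letters and not a bound site.

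Transcript abundance was concentrated in a small set of genes. The 645 highest genes held 50% of protein-coding TPM and the 5051 highest held 90%. Per library, 50% was held by 646 genes in null 1, 579 in null 2, 674 in null A and 668 in null B, so null 2 was the most concentrated. The 10 highest genes held 7.54% ± 0.342 and the 100 highest held 26.2% ± 1.11. There were 101 genes at 1000 TPM or more, 1484 between 100 and 1000, 6829 between 10 and 100, and 3155 between 1 and 10. The median detected gene stood at 25.8 TPM, with quartiles of 8.59 and 60.5. The gene just inside the limit of 1 TPM was Sned1 at 1.00 TPM, a further 915 coding genes had a mean between 0.5 and 1, and 994 detected genes were under 1 TPM in at least 1 library.

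**Figure D1:**
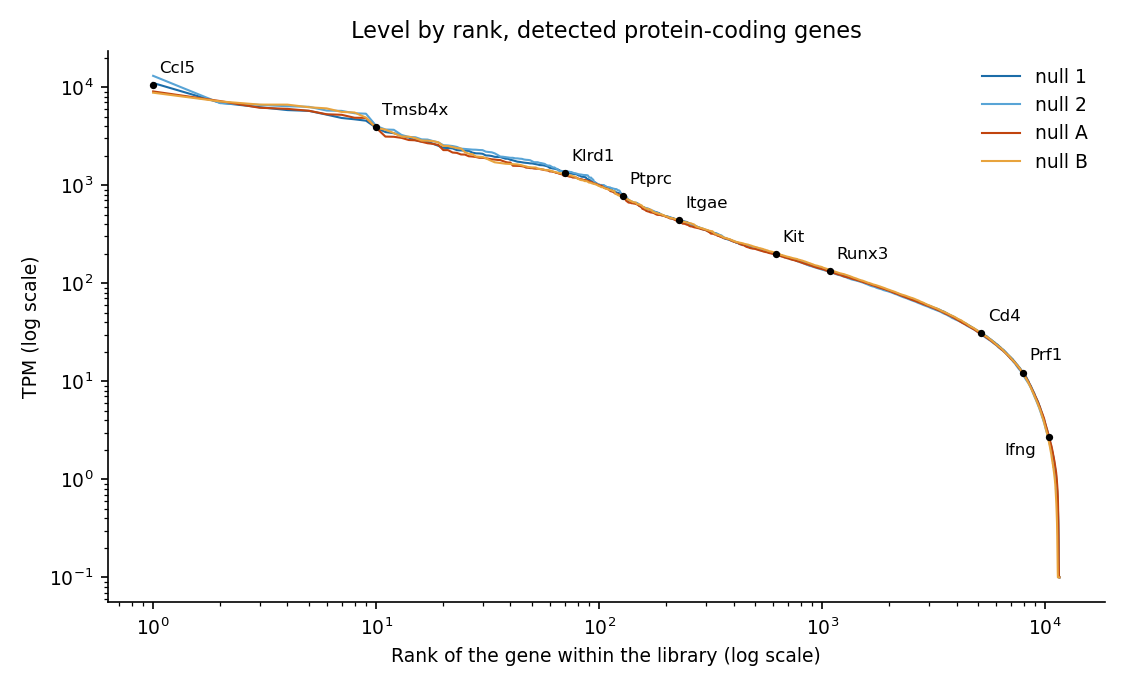
TPM of detected protein-coding genes (vertical axis, log scale) against their rank within each of the 4 null libraries (horizontal axis, log scale), with 10 genes marked at their mean level and its rank, and values under 0.1 TPM drawn at 0.1. The 4 curves lie on each other below the first ranks, and null 2 lies highest at rank 1 (Ccl5, 13046 TPM).

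Ccl5 was the highest protein-coding gene by TPM. It encodes RANTES, a chemokine that draws T cells and myeloid cells, and lies at chr11:83525778-83530518 on the minus strand of GRCm38. Its level was 11033, 13046, 9048 and 8782 TPM in null 1, 2, A and B (10477 ± 1985), or 1.29% ± 0.235 of protein-coding TPM. Null 1 and null 2 were above null A and null B. By CPM it did not rank first, with a mean of 2449 CPM. Genes above it included Eef1a1 (6515), mt-Co1 (5648), Arhgap45 (3521), H2-D1 (3244), Eef2 (3042) and H2-K1 (2921).

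After Ccl5 came genes of translation and of mitochondrial respiration. Rpl13a, a protein of the large ribosomal subunit, stood at 6511 ± 460.1 TPM. It was followed by mt-Co2 (6350 ± 633.7) and mt-Co1 (5954 ± 590.3), which encode cytochrome c oxidase subunits, and by Eef1a1 (5933 ± 598.3), which delivers aminoacyl-tRNA to the ribosome. Tmsb4x, the actin-binding thymosin beta-4, was the evenest of the 10 highest genes, at 3855, 4023, 3847 and 3853 TPM. Among the 25 highest genes and the gene that follows them, 22 of 25 neighbouring pairs had overlapping ranges and 5 kept the same order in all 4 libraries. With 4 libraries the smallest two-sided exact paired p is 0.125, so no order between neighbours was tested.

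The order depended on correction for length. Of the 100 highest genes by TPM, 44 were among the 100 highest by CPM, which favours long transcripts. Spearman's rho between the scales was 0.880 across the 11569 detected genes, which are not independent replicates. Ptprc, which encodes CD45 itself, stood at 813.9, 768.7, 798.6 and 704.7 TPM (rank 128), and null B was lowest.

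The 28 program lists and 13 marker lists together held 1072 detected genes and 35.9% of protein-coding TPM. Cytosolic ribosomal proteins were the largest of them at 13.0% ± 1.13 of protein-coding TPM, with all 79 members detected and 75 in the highest 10% of detected genes. Their share was 13.7% in null 1, 14.2% in null 2, 12.4% in null A and 11.8% in null B. Null 2 held the highest value for 59 of 79 members and null B the lowest for 41, while over all detected genes null 2 was highest for 19.2% and null B lowest for 31.8%. Rplp1, an acidic stalk protein, followed that order at 3484, 3673, 2770 and 2367 TPM, and so did Rps14, a small subunit protein, at 2394, 2542, 1902 and 1518 TPM. The levels of Rps27 (61.0 ± 54.2 TPM) and its near-identical copy Rps27rt (5564 ± 629.8 TPM) are uncertain apart. By CPM the share of ribosomal proteins was 3.63%, and those of several other lists also moved by over 1.5 times, to 2.04% for mitochondrially encoded proteins, 0.503% for nuclear-encoded respiratory chain subunits, 0.386% for cytokines and chemokines, 0.190% for NK-type receptors, 0.633% for epithelial retention, 0.553% for lineage factors, 0.302% for the cytotoxic program, 0.222% for MHC class II presentation and 0.319% for the proteasome. NK-type receptors stood above epithelial retention by TPM and under it by CPM.

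The 13 mitochondrially encoded protein genes had another order of libraries, with null B highest in place of lowest. Their share was 4.36% in null 1, 5.01% in null 2, 5.36% in null A and 5.96% in null B, a mean of 5.18% ± 0.668. Null 1 was lowest for 12 of the 13 and null B was highest for 10, while over all detected genes null 1 was lowest for 19.5% and null B highest for 33.9%. mt-Nd1, a complex I subunit, stood at 1682, 1951, 2053 and 3403 TPM, so null B was highest, while mt-Nd6, the complex I subunit read from the other strand of the mitochondrial genome, stood at 73.4, 81.2, 95.4 and 46.5 TPM, so null B was lowest. Nuclear-encoded respiratory chain subunits held 1.29% ± 0.0461 with 78 of 82 detected, led by Atp5b (488.3 ± 61.5 TPM) of the ATP synthase and Cox4i1 (416.8 ± 29.7 TPM) of complex IV.

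Translation factors held 2.20% ± 0.120 and the actin cytoskeleton 2.05% ± 0.0257. The actin list was the most even of the 28 programs between libraries, with shares of 2.05%, 2.07%, 2.01% and 2.05%, and 25 of its 28 members were in the highest 10% of detected genes. After Tmsb4x it was led by Tmsb10 (2419 ± 113.2 TPM), Actb (1520 ± 80.0 TPM) and Pfn1 (1310 ± 69.1 TPM), which set the pool and turnover of actin. MHC class I presentation held 1.48% ± 0.0312 with 14 of 15 members detected. Proteasome subunits held 0.499% ± 0.0130 with 37 of 39 detected, and the highest was Psmb8 (327.3 ± 17.0 TPM), a catalytic subunit of the immunoproteasome, which cuts peptides for class I molecules.

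**Figure D2:**
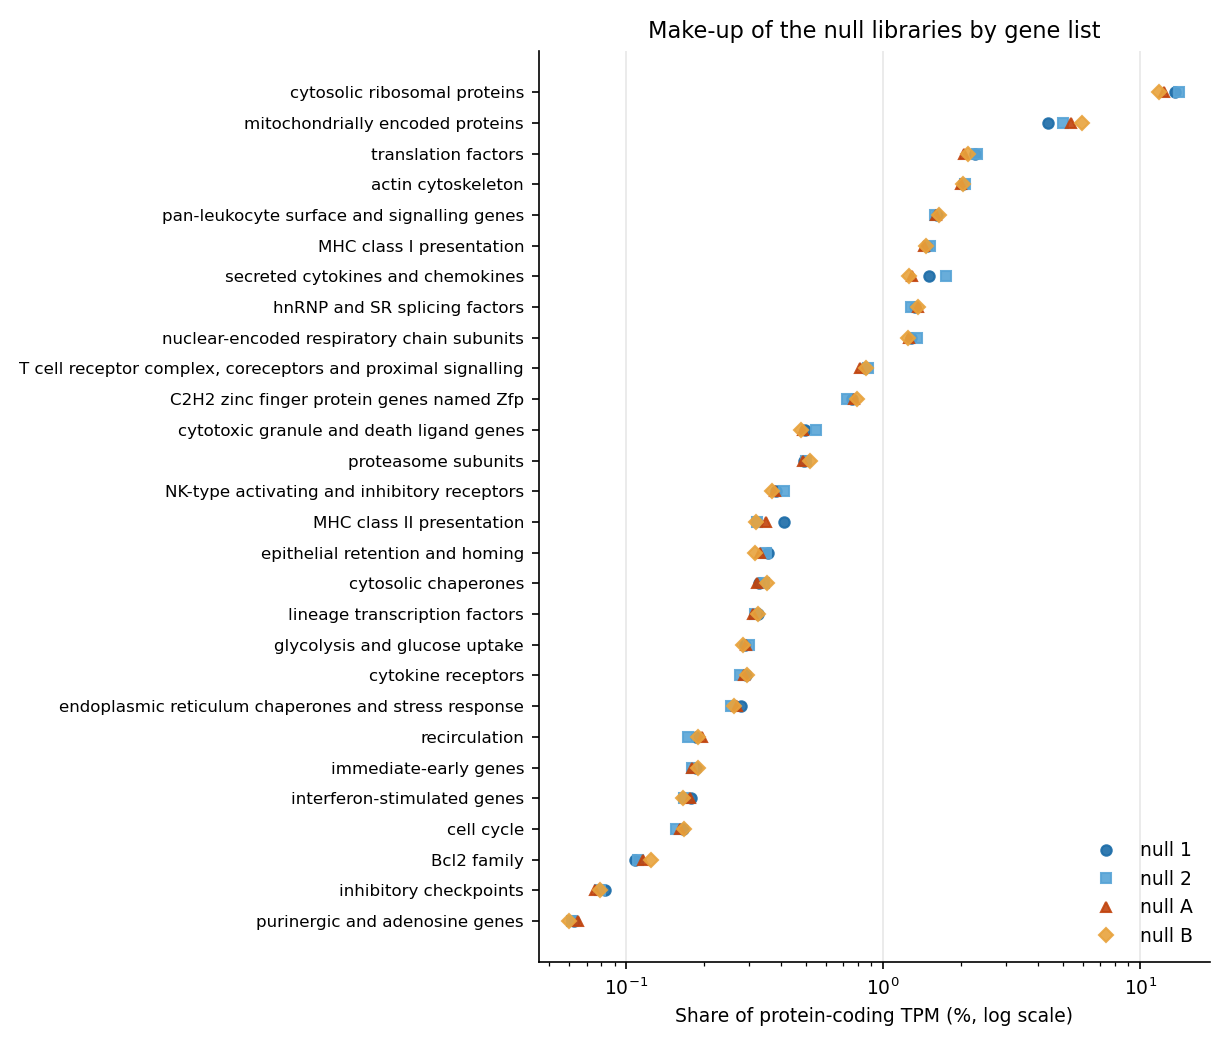
Share of protein-coding TPM (horizontal axis, percent, log scale) held by each of the 28 program lists (vertical axis), with 1 point per null library. Ribosomal proteins lie highest at 11.8% to 14.2%, and the points of the actin list (2.01% to 2.07%) nearly coincide.

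hnRNP and SR splicing factors, which bind pre-mRNA and choose its exons, stood out among the programs by the kind of transcript. They held 1.34% ± 0.0380 of protein-coding TPM with all 36 members detected. Of that TPM, 41.3%, 40.7%, 44.1% and 40.8% in null 1, 2, A and B fell on transcripts not typed as coding, such as retained-intron and nonsense-mediated decay forms. Over all detected genes this share was 20.9% ± 1.14, over actin genes 7.34% ± 0.469, and the next highest program was NK-type receptors at 25.3% ± 1.99. Hnrnph1 had 82.7% ± 3.47 of its 681.9 ± 35.2 TPM on such transcripts, Srsf5 54.7% ± 3.71 of 904.3 ± 30.6 and Hnrnpa2b1 46.8% ± 5.41 of 1025 ± 67.9. Hnrnpf (714.1 ± 41.6 TPM) had 0% on them, so the members of the list differed. Short transcripts gain TPM from few reads, and this share rests on how Salmon divided reads between forms of a gene.

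Genes of the T cell receptor complex, its coreceptors and its first signalling steps were all detected (28 of 28) and held 0.847% ± 0.0249 of protein-coding TPM. Their median was 172.6 TPM, against 25.8 TPM over all detected genes. Cd3g, an invariant chain of the receptor, stood at 1092, 1276, 1015 and 1038 TPM, and Cd3e, another, at 659.9, 717.2, 613.2 and 705.2 TPM. The kinase Lck, which starts the receptor signal, had a mean of 634.5 ± 32.3 TPM. These 3 genes ranked 91, 141 and 151 among protein-coding genes. Transcripts not typed as coding held 44.2% ± 3.32 of the Cd3e level and 35.3% ± 6.45 of the Lck level, against 2.52% ± 0.255 for Cd3g.

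The coreceptors were far apart in level. Cd8a, at chr6:71373427-71379173 on the plus strand of GRCm38, stood at 553.8, 567.7, 489.9 and 515.9 TPM. Cd8b1 stood at 116.8, 107.6, 97.9 and 102.1 TPM, and Cd4 at 30.3, 37.1, 28.4 and 27.6 TPM. In each library Cd8a was above Cd8b1 and Cd8b1 above Cd4. The ratio of Cd8a to Cd8b1 was 5.02 ± 0.220 (4.74 to 5.28) and that of Cd8a to Cd4 was 17.4 ± 1.51 (15.3 to 18.7). Of the Cd8a level, 38.5% ± 1.25 fell on transcripts not typed as coding.

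Constant-region transcripts of both kinds of T cell receptor were present, and they are typed apart from protein-coding genes in the files. Trbc1 and Trbc2 of the beta chain summed to 2883, 3095, 2978 and 2895 TPM. Tcrg-C1, Tcrg-C2 and Tcrg-C4 of the gamma chain summed to 946.1, 1002, 971.4 and 1133 TPM, and the beta to gamma ratio was 2.94 ± 0.256. In null B that ratio was 2.56, below 3.05 to 3.09 in the others. Trac of the alpha chain stood at 321.6 ± 28.6 TPM and Trdc of the delta chain at 133.3 ± 15.8 TPM, a ratio of 2.44 ± 0.319. By CPM their order was reversed, with means of 134.1 for Trac and 345.8 for Trdc. The ratios between constant genes therefore depend on the correction for length. Shares of transcripts are not shares of cells, since RNA per cell was not measured.

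Genes that hold lymphocytes in the epithelium formed a list of 24, of which all 23 in the files were detected, with 0.338% ± 0.0179 of protein-coding TPM. Itgae (CD103, chr11:73090583-73147446, plus strand, GRCm38) stood at 454.0, 451.5, 435.1 and 408.2 TPM, and its partner chain Itgb7 at 498.5, 511.9, 484.9 and 450.5 TPM. The ratio of Itgae to Itgb7 was 0.899 ± 0.0126, so the 2 chains kept nearly the same proportion in all 4 libraries, with null B lowest for both. Among chemokine receptors, Cxcr6 stood at 296.3 ± 37.7 TPM and Ccr9, the receptor for the small-intestinal chemokine CCL25, at 231.7 ± 13.8 TPM. Runx3, a transcription factor needed for CD103 and CD8 expression, stood at 175.8, 114.7, 130.1 and 108.5 TPM. Null 1 was its highest library by TPM, where 47.3% of its TPM fell on transcripts not typed as coding, against 12.9% to 32.4% in the others. By CPM the coefficient of variation of Runx3 (CV, the SD over the mean) was 0.0431, against 0.230 by TPM.

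Genes of lymphocyte recirculation were present beside them. Tcf7, a transcription factor of naive and memory T cells, stood at 574.3, 582.1, 601.3 and 665.2 TPM, and Il7r, the receptor chain for the survival cytokine IL-7, at 408.8, 357.1, 423.5 and 371.8 TPM. Of this list 10 of 11 members were detected, with 0.187% ± 0.00982 of protein-coding TPM. Cxcr4 (93.4 ± 14.1 TPM) and S1pr4 (85.9 ± 7.45 TPM), receptors that guide lymphocyte traffic, were its next members. Cd44, a receptor that osteopontin binds, was at 36.6 ± 2.87 TPM, and Spp1, which encodes osteopontin, was at 0.147 TPM, with values from 0 to 0.327.

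NK-type receptors held 0.386% ± 0.0172 with 28 of 29 members detected. A single gene made up much of that: Klrd1, which encodes CD94 (chr6:129591782-129598775, plus strand, GRCm38), stood at 1347, 1387, 1334 and 1255 TPM and ranked 70. Of the Klrd1 level, 39.3% ± 2.11 fell on transcripts not typed as coding. Hcst (DAP10) stood at 330.9, 455.5, 355.5 and 385.9 TPM, and Tyrobp (DAP12) at 358.2, 354.5, 265.1 and 281.8 TPM. Both are adaptors that carry the signal of activating NK-type receptors. The ratio of Tyrobp to Hcst was 1.08 in null 1 and 0.730 to 0.778 in the others. Cd160, an inhibitory and activating receptor of intraepithelial CD8 T cells, was at 99.2 ± 17.1 TPM. Classical NK cell markers were low, with Klrb1c (NK1.1) at 11.8 ± 2.80 TPM and Ncr1 at 2.42 ± 0.985 TPM.

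The cytotoxic program was uneven in its members. Of 24 genes 20 were detected, and together they held 0.501% ± 0.0305 of protein-coding TPM. Gzma, a trypsin-like granzyme (chr13:113093825-113100981, minus strand, GRCm38), stood at 1051, 1284, 920.1 and 869.5 TPM. Gzmb, the caspase-activating granzyme, stood at 91.0, 98.0, 95.5 and 128.3 TPM. Prf1, the pore-forming perforin, stood at 13.0, 15.5, 11.6 and 8.78 TPM. Gzma was above Gzmb and Gzmb above Prf1 in all 4 libraries, with a Gzma to Gzmb ratio from 6.78 in null B to 13.1 in null 2. Srgn, the proteoglycan that packs granules, stood at 858.3 ± 67.7 TPM and the protease Ctsw at 602.9 ± 49.4 TPM. Gzmd, Gzme, Gzmf and Gzmg, granzymes of a strongly activated state, had no read in any library.

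**Figure D3:**
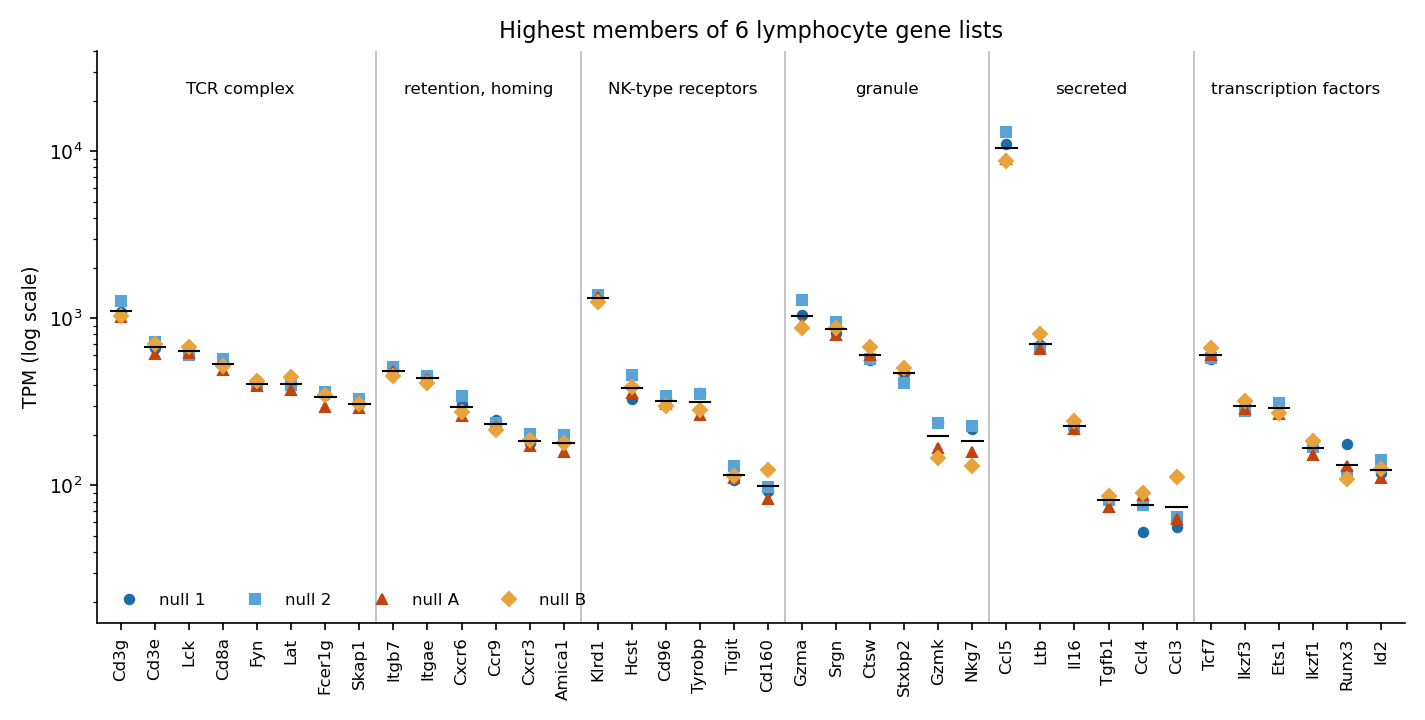
TPM (vertical axis, log scale) of the highest members of 6 lymphocyte gene lists (horizontal axis), with 1 point per null library and a line at the mean. Ccl5 (8782 to 13046 TPM) lies highest, and the points of most genes lie close to the mean line, with Runx3, Ccl3 and Ccl4 spread more widely.

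Secreted cytokines and chemokines held 1.45% ± 0.225, nearly all of it Ccl5, and 15 of 27 members were detected. Ltb, the membrane-bound partner of lymphotoxin, stood at 696.3, 663.5, 653.2 and 810.6 TPM, and Il16, a ligand of CD4, at 227.3 ± 12.2 TPM. Ccl5 was 97.6 to 210.7 times the level of Ccl4, another chemokine of activated T cells (76.4 ± 17.1 TPM). Ifng, the interferon of type 1 responses, stood at 2.22, 5.63, 2.97 and 0.108 TPM, so null B was under the detection limit and null 2 was highest. Il5, Il13, Il17a and Il22, effector cytokines of types 2 and 17, had no read in any library. At these depths 3 reads would have been the floor, so their absence holds only above that level.

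Among cytokine receptors 27 of 28 were detected. The common gamma chain Il2rg stood at 291.0 ± 11.3 TPM and Il2rb, shared by the receptors for IL-2 and IL-15, at 191.6, 205.8, 185.9 and 216.6 TPM. Il2ra, the high-affinity IL-2 receptor chain of activated and regulatory T cells, was at 2.95 ± 1.12 TPM. Kit, the receptor for stem cell factor, stood at 207.8, 181.2, 190.8 and 211.9 TPM with a CV of 0.0727. Mast cell genes were near 0 beside it, with Cpa3 at 1.05 ± 0.707 TPM and no read for Mcpt2 in any library.

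The lineage transcription factors held 0.319% ± 0.00748, with 37 of 38 detected. Below Tcf7 they were led by Ikzf3 (299.2 ± 18.9 TPM), Ets1 (289.2 ± 23.6 TPM) and Ikzf1 (168.4 ± 13.2 TPM), regulators of lymphocyte identity. Tbx21, the T-box factor of type 1 cells, stood at 23.5, 31.5, 19.3 and 19.3 TPM. Foxp3, the factor of regulatory T cells, was near the detection limit at 0.465, 1.08, 1.41 and 1.33 TPM, and null 1 was below 1. The list of regulatory T cell markers, which holds Foxp3, had 9 of 10 members detected, with a median of 14.2 TPM. It summed to 260.3, 236.7, 237.7 and 302.8 TPM in null 1, 2, A and B. It also holds Il2ra and Ctla4, whose levels are given with the receptors and the checkpoint genes.

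Inhibitory checkpoint genes held 0.0789% ± 0.00287, with all 14 detected. Vsir (VISTA) stood at 165.2 ± 12.2 TPM, Nt5e (CD73, which makes adenosine outside the cell) at 123.1 ± 6.44, Lag3 at 65.6 ± 11.6 and Ctla4 at 54.6 ± 5.25. Pdcd1 (PD-1) was at 6.07 ± 2.53 TPM, the lowest of the 14 but Havcr2. Of the purinergic list all 9 members in the files were detected, with P2rx7, an ATP-gated channel, at 62.5 ± 9.17 TPM.

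Genes of the Bcl2 family, which has both survival and death-promoting members, held 0.115% ± 0.00717 with 16 of 18 detected. Bax, which opens the mitochondrial membrane in apoptosis, stood at 264.8, 277.4, 283.6 and 360.4 TPM, and Mcl1, which restrains it, at 214.6, 220.5, 229.7 and 266.6 TPM. Null B was highest for both. Bcl2 was at 11.6 ± 1.19 TPM, and the ratio of Mcl1 to Bcl2 was 20.4 ± 4.10. Bcl2a1b (101.1 ± 9.35 TPM) shares sequence with the other Bcl2a1 genes and is uncertain by itself.

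Cell cycle genes held 0.163% ± 0.00487 with 31 of 32 detected. Cdkn1b (p27), an inhibitor that keeps cells from entering S phase, was the highest at 349.1, 350.5, 320.3 and 319.6 TPM. It was followed by Ccnd3 (196.7 ± 20.8 TPM), Cdk4 (127.1 ± 15.3 TPM) and Pcna (120.5 ± 20.5 TPM). Mki67, a marker of dividing cells, stood at 5.58, 5.68, 7.51 and 5.28 TPM, and the list's median over detected members was 8.78 TPM. Glycolysis held 0.292% ± 0.00642 with all 20 members detected, led by Aldoa at 576.3 ± 23.4 TPM.

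Stress and early response genes were detected throughout, with 24 of 24 immediate-early genes, 23 of the 23 cytosolic chaperones in the files and 24 of 24 endoplasmic reticulum genes. Btg1, which slows proliferation, led the first list at 426.0 ± 34.0 TPM, while Fos was at 17.4 ± 5.88 TPM. Hsp90ab1 led the second at 543.8 ± 23.1 TPM, and Hspa5, the chaperone BiP, led the third at 217.5 ± 24.9 TPM. Interferon-stimulated genes (25 of 26 detected) were led by Irf1 at 234.1 ± 6.28 TPM, while Isg15 was at 13.9 ± 2.49 TPM.

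MHC class II transcripts, which professional antigen-presenting cells make, were also present, with all 9 genes detected and 0.351% ± 0.0411 of protein-coding TPM. Cd74, the invariant chain, stood at 1375, 1141, 1165 and 1064 TPM, and H2-Ab1 at 575.6, 449.3, 460.4 and 459.1 TPM. Null 1 was highest for 9 of 9, and for 26.1% of all detected genes. B cell markers were all detected (14 of 14) and summed to 1062, 843.1, 1017 and 1157 TPM, with Cd79a of the B cell receptor at 230.7 ± 15.8 TPM. In bulk samples fewer cells of a type and less RNA per cell cannot be told apart.

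Plasma cell markers were all detected (8 of 8) and summed to 798.8, 1087, 1440.1 and 567.0 TPM, most of it from 1 gene. The median of the 8 was 15.5 TPM, below that of all detected genes. Of the 8, 2 (25%) had a CV of 0.5 or more, against 10.4% of all detected genes and 2.88% of those between 10 and 30 TPM. Jchain, which links secreted IgA, stood at 615.8, 906.8, 1195 and 402.1 TPM, and Igha, the IgA heavy chain constant gene, at 4956, 7314, 10351 and 2975 TPM (6399 ± 3176). Both had the order null A, null 2, null 1, null B from high to low. Mzb1, a chaperone of antibody assembly, stood at 68.0, 60.6, 99.2 and 55.3 TPM, and Txndc5, a disulfide isomerase, at 62.8, 69.3, 84.6 and 64.5 TPM, so null A was highest for both and the other libraries had another order. Ighm, the IgM constant gene, did not follow it, at 850.1, 801.4, 919.2 and 1508 TPM with null B highest. Immunoglobulin constant genes together held 1.21%, 1.68%, 2.30% and 0.889% of the TPM of all gene types.

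**Figure D4:**
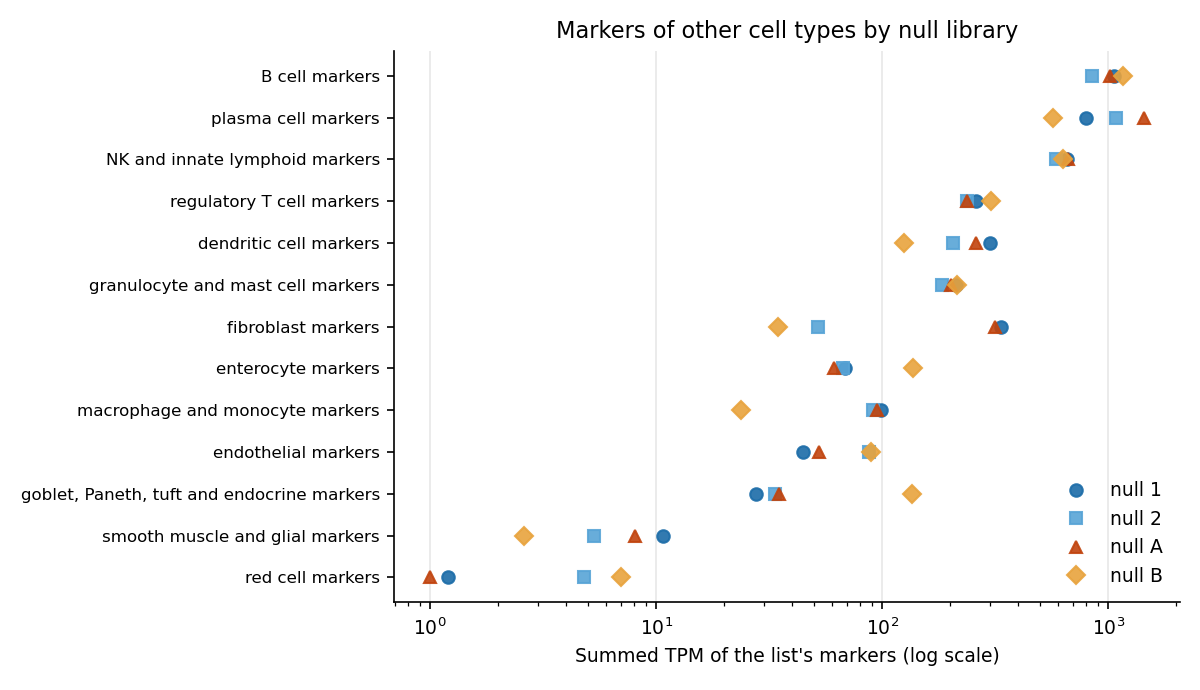
Summed TPM (horizontal axis, log scale) of the markers of 13 other cell types (vertical axis), with 1 point per null library. The NK and innate lymphoid sum (mean 636.2 TPM) is mostly Il7r (390.3 TPM) and Kit (198.0 TPM), which other lists also hold. The median of its detected members is 2.88 TPM. Null B lies apart for enterocyte (136.9 TPM), goblet and related (135.5 TPM) and macrophage markers (23.8 TPM), and fibroblast markers split null 1 and null A (335.2 and 314.2 TPM) from null 2 and null B (51.9 and 34.6 TPM).

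Epithelial transcripts were low and concentrated in null B. Enterocyte markers (11 of 20 detected) summed to 68.1, 66.7, 61.5 and 136.9 TPM, and goblet, Paneth, tuft and endocrine markers (7 of 17 in the files) to 27.5, 33.5, 35.0 and 135.5 TPM. Fabp2, a fatty acid carrier of enterocytes, stood at 4.16, 4.10, 4.15 and 26.8 TPM, and Tff3, a secreted peptide of goblet cells, at 6.02, 1.87, 3.06 and 55.1 TPM. Apob, Apoc3 and Lyz1 had no read in any library. A few genes of these lists did not follow the others: Epcam, an epithelial adhesion gene, stood at 32.6, 32.95, 29.4 and 29.1 TPM, so null B was its lowest library. Zg16, of the goblet list, stood at 17.3, 28.9, 28.9 and 20.4 TPM, with 96.1% ± 5.85 of it on transcripts not typed as coding. Without Epcam, Lgals4 and Zg16, a choice made after their values were seen, the enterocyte sum was 19.3, 12.3, 12.4 and 82.7 TPM and the goblet and related sum 10.2, 4.52, 6.12 and 115.0 TPM.

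Stromal transcripts split the libraries into pairs that differ from the naming. Fibroblast markers (10 of 14 detected) summed to 335.2 TPM in null 1 and 314.2 in null A, against 51.9 in null 2 and 34.6 in null B. Dcn, the collagen-binding proteoglycan decorin, stood at 51.7, 3.06, 51.6 and 0.362 TPM, and Gsn, an actin-severing protein, at 161.7, 41.5, 190.0 and 29.8 TPM. Endothelial genes showed the opposite pairs. Fabp4, a fatty acid carrier of capillary endothelium, stood at 0.291, 59.1, 0.319 and 45.5 TPM, and Cdh5, the endothelial cadherin, at 0.603, 6.00, 0.600 and 5.45 TPM. Pecam1, which leukocytes share with endothelium, stood at 36.4, 37.3, 34.7 and 42.8 TPM, and without it, also left out after its values were seen, the endothelial sum was 8.05, 49.7, 17.7 and 46.7 TPM. The part of these other cells in the spread of lymphocyte genes was not tested.

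Myeloid transcripts were low. Macrophage and monocyte markers (5 of 15 detected) summed to 98.4, 90.6, 95.0 and 23.8 TPM, and the 5 detected members had a median of 13.7 TPM. Only 1 of the 15 had no read in any library, C1qc, a complement gene of tissue macrophages. Dendritic cell markers (11 of 12) summed to 298.7, 205.9, 259.7 and 125.2 TPM. Siglech, of plasmacytoid dendritic cells, stood at 124.9, 80.3, 99.9 and 25.2 TPM, so null B was lowest for all 3 measures. Granulocyte and mast cell markers (3 of 14) were nearly all Kit.

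The spread between libraries depended on level. The median CV over detected genes was 0.154 by TPM (quartiles 0.0914 and 0.275) and 0.116 by CPM. Counting error alone, which is on the scale of reads, gave 0.0207. By TPM the median CV fell from 0.552 between 1 and 3 TPM to 0.0833 between 100 and 1000 TPM. Without null B the median CV was 0.120. A CV of 0.5 or more was found for 1203 genes (10.4%), and null B was the lowest library for 513 of them (42.6%, against 31.8% of all detected genes) and the highest for 413 (34.3%, against 33.9%).

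By list, the median CV was lowest for actin (0.0555), pan-leukocyte (0.0609) and MHC class I genes (0.0713). None of their 28, 26 and 14 detected members had a CV of 0.5 or more. Their median levels were 331.5, 417.1 and 329.1 TPM. Of all genes between 100 and 1000 TPM, 0.0674% had such a CV, and the median CV was 0.0833. The median CV was highest for goblet and related (1.68), enterocyte (1.16) and fibroblast markers (1.09), of which 6 of 7, 8 of 11 and 10 of 10 detected members had a CV of 0.5 or more, beside 8 of 10 endothelial markers. The median levels of the first 3 were 4.48, 2.83 and 5.56 TPM. Of all genes, 55.5% between 1 and 3 TPM and 19.7% between 3 and 10 TPM had such a CV. Among genes at 20 TPM or more, the 10 with the smallest CV included Ranbp10 at 26.6, 26.4, 26.6 and 26.5 TPM and Dennd4a at 51.6, 52.0, 52.0 and 51.1 TPM. By CPM their CVs were 0.0296 and 0.0660, so the near identity belongs to the TPM scale.

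**Figure D5:**
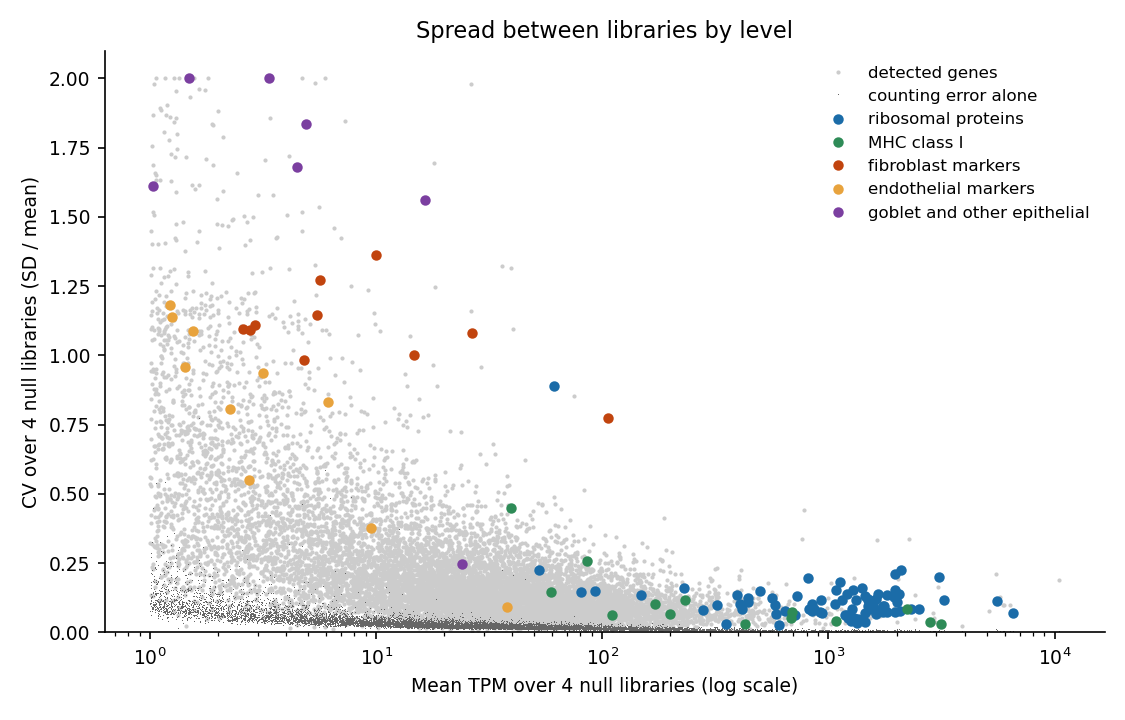
CV over the 4 null libraries (vertical axis) against mean TPM (horizontal axis, log scale) for detected protein-coding genes (light grey), with the CV that counting error alone gives (dark grey) and 5 lists in colour. Fibroblast, endothelial and goblet markers lie mostly above a CV of 0.5, while no MHC class I gene does and most ribosomal protein genes lie below 0.25.

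Some large spreads were present in TPM and absent in reads. Of 27 genes at 20 TPM or more with a CV of 0.5 or more (predicted and clone-named genes and receptor segments left out), 17 had a CV under 0.5 by CPM. Dmxl1, a large vesicle-acidification gene, stood at 70.6, 12.0, 17.0 and 16.5 TPM. In null 1, 55.9 TPM of it fell on a 70-base coding transcript that held 28 reads, which had 0 reads in the other libraries, while its full transcript of 11319 bases stood at 12.8, 11.6, 15.3 and 12.7 TPM. Nhej1, of DNA end joining, stood at 154.3, 45.2, 95.5 and 6.02 TPM, of which 144.1, 35.7, 89.8 and 0 TPM fell on a 65-base transcript with 70, 22, 56 and 0 reads. Hist1h2ap, a histone gene, had a CV of 1.32 on both scales, at 5.58, 115.0, 32.2 and 5.001 TPM. Dcn and Fabp4 also had the same CV on both scales (1.08 and 1.16).

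Promoters of detected genes were richer in G and C than those of coding genes under 1 TPM. The median GC content of the 250 bases before the RefSeq start was 60% in 8692 detected genes and 50% in 6443 genes under 1 TPM, and the observed over expected CpG ratio was 0.744 and 0.263. TATAAA on the reading strand between 40 and 16 bases before the start was in 1.25% and 4.70% of them. The lymphocyte lists differed from the detected genes as a whole. NK-type receptors (22 windows) had a median of 40.6% GC and a CpG ratio of 0.193, and T cell receptor complex genes (19 windows) 55.6% and 0.264, against 56.8% and 0.840 for ribosomal proteins (58 windows). Many NK-type receptor genes are neighbours and near copies, so their windows are not independent. For 75.9% of the detected genes with a window, the RefSeq start lay within 100 bases of the start of the gene's dominant transcript in these libraries.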

How the data were processed

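RNA of the 4 null libraries came from a column kit for small amounts and went into stranded Illumina libraries, per the labels' protocols. The submitters' processing notes name Salmon. Its version, its transcript set and the build were not given in the sources used here. For each library the authors deposited 1 table with TPM and estimated counts of reads for 133618 transcripts of 52661 genes. Both were summed per gene over all its transcripts, and no count was rounded since no count model was fitted. A gene was protein-coding if it had at least 1 transcript of that type in the files. Positions are from GENCODE M21 (GRCm38), with which 131233 transcripts shared a versioned identifier, and promoter windows are from RefSeq (GRCm38.p6).

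CV is the SD over the mean of 4 TPM values, and the error from counting alone was computed from the estimated reads. PCR duplicates are not marked, so such errors and the floor of 3 reads cover counting only. The spread script was tested on simulated data. Python 3.11.15, pandas 2.3.3 and numpy 2.4.6 were used, and edgeR 4.0.16 gave TMM factors for 1 alternative. No fit was made.

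Named genes were the 25 highest, the 4 highest of each list, the 10 highest and 10 lowest CVs at 20 TPM or more (predicted and clone-named genes and receptor segments left out), antigen receptor constant genes, the 5 highest noncoding genes and 18 fixed genes. Other list members named in the text were chosen after their values were seen. The members and lists were chosen with earlier results of these data known. The respiratory chain list was corrected for subunit names after the files were read. Alternatives covered the level unit, the transcripts summed, the filter, the total, the scaling, the log scale and each library left out. A few named genes are not reported here.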

Additional observations from a re-analysis of the deposited data

Results flagged for a closer look

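In each group of 4 libraries, a value was marked when its gap to the nearest other library, over the range of the 4, passed Dixon's 95% critical value. Of 280 groups looked at, 21 (7.5%) were marked. Chance marks about 1 in 20 where groups are independent and not picked by their values. These groups overlap, since list sums contain named genes, and some genes were picked by their level or CV in the same libraries. The share marked can therefore not be set against that rate. Null B was the library in 14 of the 21 marked groups, null 1 in 4, null A in 2 and null 2 in 1.

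In null B, epithelial transcripts were higher than in the other 3 libraries. Tff3 stood at 55.1 TPM against 1.87 to 6.02, Fabp2 at 26.8 against 4.10 to 4.16, Reg3b, an antimicrobial lectin, at 18.3 against 0 to 1.19, Fcgbp, a mucus protein, at 15.7 against 0.0927 to 1.26, and Fabp1 at 14.8 against 0.0567 to 1.40. The enterocyte sum was 136.9 TPM against 61.5 to 68.1, and the goblet and related sum 135.5 against 27.5 to 35.0. The macrophage and monocyte sum was lower in null B, at 23.8 TPM against 90.6 to 98.4. Null B also had a read on 20225 genes against 22940 to 22997.

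Lymphocyte genes were marked in null B as well. Ighm stood at 1508 TPM against 801.4 to 919.2, Tcrg-C4 at 215.9 against 192.7 to 194.8, and the beta to gamma receptor ratio at 2.56 against 3.05 to 3.09. Bcl2l11, which encodes the death-promoting protein BIM, was lowest there at 49.4 TPM against 54.3 to 55.3. Mir6236, a short noncoding entry, stood at 21227 TPM against 14307 to 15359.

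The other libraries had single values. Null 1 was highest for H2-Ab1 at 575.6 TPM against 449.3 to 460.4, for Dmxl1 at 70.6 against 12.0 to 17.0 and for the Tyrobp to Hcst ratio at 1.08 against 0.730 to 0.778, and lowest for Bcl2a1b at 87.1 against 105.0 to 106.6. Null 2 was highest for Tmsb4x at 4023 TPM against 3847 to 3855. Null A was highest for Hnrnph1 at 734.3 TPM against 659.1 to 670.5 and lowest for the protein-coding share of all TPM at 79.2% against 81.3% to 81.6%.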

How the results depend on the processing

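No paired analysis was possible because the results come from 1 group and from no test. By CPM (reads of a gene over the library total), 1127 genes held 50% (645 by TPM), and the shares of coding abundance were 3.63% for ribosomal proteins, 2.04% for mitochondrially encoded proteins, 1.56% for actin, 1.30% for MHC class I, 0.751% for the T cell receptor complex and 0.386% for cytokines and chemokines. With coding transcripts alone these 6 shares were 15.1%, 6.55%, 2.40%, 1.60%, 0.880% and 1.80%. With mitochondrially encoded genes left out of the total, actin held 2.16%, MHC class I 1.56% and the T cell receptor complex 0.894%. By CPM, cytokine receptors (0.288% by TPM) held 0.449% and Zfp genes (0.759%) 1.17%, and the fibroblast and endothelial means (184.0 and 68.4 TPM) were 335.9 and 138.3. Splicing factors moved more with coding transcripts alone (1.34% to 0.984%) than by CPM (1.31%). The goblet and related mean (57.9 TPM) was 31.7 TPM on coding transcripts and 30.4 by CPM. Beyond the 6 shares, CPM moved 22 list values by more than the SD between libraries and kept 13, coding transcripts alone moved 23 and kept 12, and the total without mitochondrially encoded genes moved 19 and kept 3. With no filter on low values the median CV was 0.263 (0.154 with it). Leaving out each library in turn kept the detected genes, the genes holding 50% and the median CV within 1.5 times. It gave 11538 to 11601 genes detected, 635 to 666 holding 50%, and a median CV of 0.120 to 0.153. The shares were 12.6% to 13.4% for ribosomal proteins, 4.91% to 5.45% for mitochondrially encoded proteins, 2.04% to 2.06% for actin, 1.47% to 1.49% for MHC class I, 0.839% to 0.858% for the T cell receptor complex and 1.35% to 1.52% for cytokines and chemokines. The limit for shares was the SD between libraries. Leaving out 1 of 4 values cannot move their mean that far, so for shares this outcome was fixed in advance. Among marker sums, the goblet and related mean was 32.0 TPM without null B and 57.9 with it. The filter of 1 TPM in every library, the gene type of GENCODE M21 and median-of-ratios and TMM scaling kept the results they were run on within those limits. On the log scale the median SD was 0.209 for log2(TPM + 1) and 0.221 for log2(TPM + 0.1). An SD of log2 values has another unit than a CV, so those limits cannot be applied to it. Depth limits only genes near 0: 3 reads correspond to at most 0.0522 CPM.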

Other observations

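Gene types outside the protein-coding set held 19.1% of TPM, led by miRNA entries at 5.58% ± 0.702, which held 0.0556% of the reads. Gm24245, a short noncoding entry, had the highest TPM of any gene at 27628, 24520, 25597 and 34644 in null 1, 2, A and B, with null B highest. Processed pseudogenes held 2.01% ± 0.145 of TPM, and immunoglobulin variable genes 1.44%, 2.06%, 2.71% and 1.06%. Iglv1, a lambda light chain variable gene, stood at 2931, 4657, 6086 and 760.9 TPM, the same order of libraries as Igha and Jchain. Mitochondrial ribosomal RNA held 0.116%, 0.117%, 0.120% and 0.258%, with null B highest.

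The symbol Zc3h11a, an mRNA export gene, belongs to 2 gene identifiers in the files. The one with a high CV (ENSMUSG00000116275.1) stood at 45.5, 35.2, 49.6 and 0.658 TPM, so null B was lowest. Reads on 2 near-identical models of a gene are divided by Salmon, and their single levels are uncertain.

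Zfp706, a zinc finger gene, stood at 122.2, 137.7, 141.4 and 210.6 TPM, a CV of 0.257, while its CV by CPM was 0.0187. Of the 335 zinc finger genes named Zfp, 277 were detected, and they held 0.759% ± 0.0281 of protein-coding TPM and 1.17% of protein-coding reads.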
